A study of Drosophila melanogaster with 4 samples.

Results

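The genes described here encode the proteins of the mitochondrial ribosome of Drosophila melanogaster. They were taken as every gene of the count table whose symbol starts with mRpL or mRpS, after FlyBase identifiers were matched to symbols. This gave 71 genes of the 17628 identifiers in the table. Of these, 24 have mRpS symbols and 47 have mRpL symbols, counted here as the small and the large subunit. The reference gene table holds 73 such symbols. mRpS5 and mRpS34, to which no identifier could be matched, were not analysed here, and 306 FlyBase identifiers of the count table stayed without a symbol. Of the 71 genes, 70 had counts, all 70 passed the filter on low counts, and mRpL53 had 0 counts in each library.

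Messenger RNA of whole 5-day-old flies of the Oregon strain, a standard laboratory stock, was counted per gene after the flies had been fed on galactose or on glucose. Each diet had 2 libraries, made from poly-A RNA, with total counts of 23647685 and 21147212 for galactose and 25497099 and 23334524 for glucose. The labels give no sex, no genotype beyond the strain and no number of flies per library. Nothing in them ties the 2 libraries of a diet to separate fly cultures. The p-values below therefore set each diet difference only against the variation between these libraries, and that variation may be technical. The libraries hold all tissues of the fly, so fewer cells of a type and less RNA per cell cannot be told apart.

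The mitochondrial ribosome translates the few messenger RNAs that mitochondrial DNA encodes, which in animals are core subunits of the respiratory chain complexes and of ATP synthase. Its ribosomal RNAs come from the mitochondrial genome, whereas its proteins are encoded in the nucleus, made in the cytosol and imported into the organelle. It descends from a bacterial ribosome and has gained proteins without a bacterial counterpart, and it works at the inner membrane into which its products are inserted.

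With TMM scaling, transcripts of the mitochondrial ribosome stood at nearly the same level on both sugars. Their summed level was 2785 and 2687 CPM in the galactose libraries and 2746 and 2781 CPM in the glucose libraries, where CPM is the count relative to its library's total after TMM scaling. The galactose libraries averaged 2736 ± 68.9 CPM and the glucose libraries 2764 ± 24.8 CPM (SD, n = 2 each). The lower galactose library was below both glucose libraries and the other was above both. As a share of all counts, before any scaling, the 71 genes took 0.284% and 0.283% on galactose and 0.276% and 0.257% on glucose. Both unscaled galactose shares were thus above both glucose shares.

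Of the 70 genes tested, 0 passed an adjusted p of 0.05 in edgeR's quasi-likelihood test with Benjamini-Hochberg adjustment over all genes, where 0% of the 12529 genes tested passed. At an unadjusted p under 0.05 edgeR found 0 of the 70, against 8.24% of all genes tested. DESeq2 called 0 of the 70 as well, with adjusted p-values from 0.910 to 1.00, against 0.686% of the 12825 genes for which it gave one. At an unadjusted p under 0.05 DESeq2 found 0 of the 70 and 6.75% of all genes, and limma-voom found 0 of the 70 and 8.48% of all genes. None of the 70 was called in the authors' deposited table, against 0.745% of 11679 genes with an adjusted p. In that table the adjusted p-values of the 70 lay from 0.861 to 1.00, and 0 had an unadjusted p under 0.05, against 6.65% of all genes.

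The median log2 fold change of the 70 genes, galactose over glucose, was 0.04, with quartiles of -0.06 and 0.10. Over all 12529 genes tested the median was -0.04, with quartiles of -0.40 and 0.28. The 70 values ran from -0.33 (mRpS9) to 0.27 (mRpS24), a band that held 45.2% of all genes tested. In 40 genes the fold change was above 0 and in 30 below it, whereas 53.1% of all genes tested were below 0. The sign of the median depends on how the libraries are scaled: it was -0.08 with upper-quartile scaling, where the median of all genes was -0.15, and 0.13 with library totals alone, where that of all genes was 0.06. Upper-quartile scaling left 15 genes above 0 and 55 below, and library totals 56 above and 14 below. Without the first galactose library the median of the 70 was -0.06, with 20 above 0 and 50 below.

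**Figure D1:**
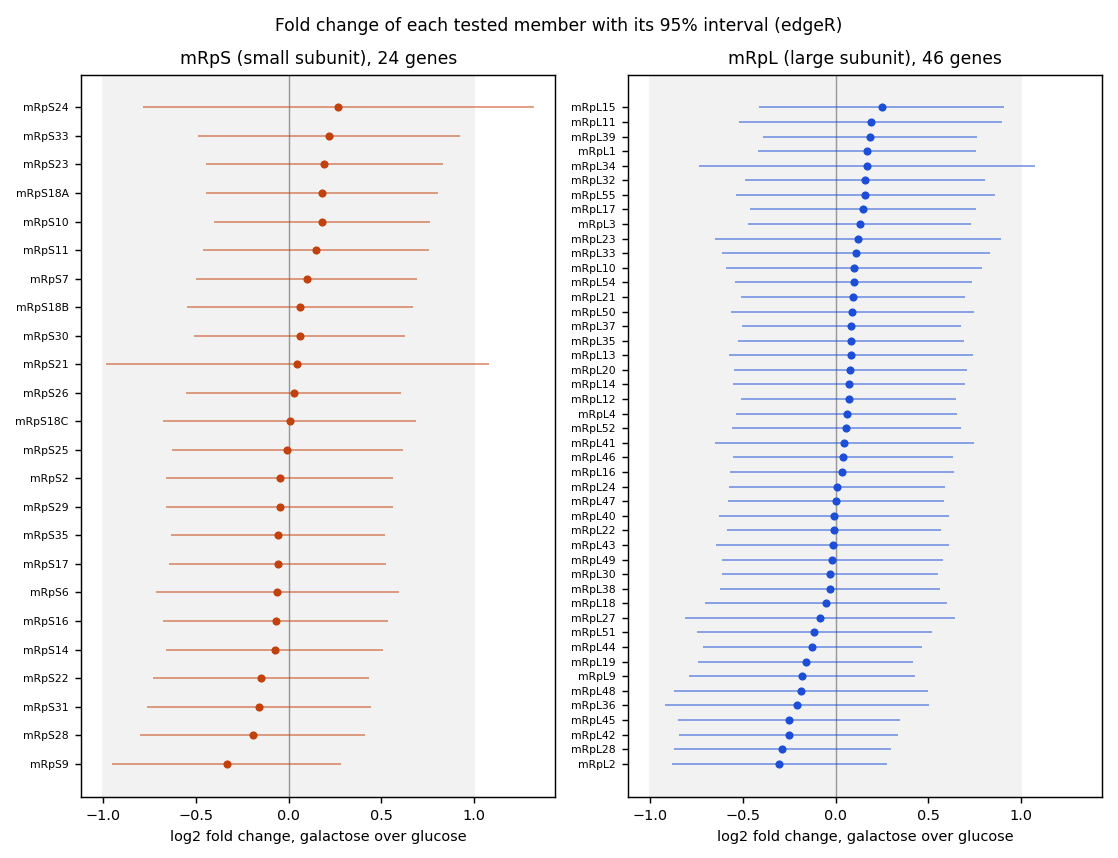
Log2 fold change, galactose over glucose, of each of the 70 tested genes (x axis), one gene per line, ordered by value within the small subunit (left, 24 genes) and the large subunit (right, 46 genes). Points are edgeR estimates, lines their 95% intervals, and the grey band spans a 2-fold change either way; the estimates lie between -0.33 and 0.27 and 67 of the 70 intervals stay inside the band.

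The intervals below rest on the spread between libraries that may be technical replicates, so they bound differences between these libraries. The 95% interval of the fold change lay within a 2-fold change either way for 67 of the 70, against 31.5% of all genes tested. The intervals of mRpS24, mRpS21 and mRpL34 did not, and these are among the genes with the lowest levels. The median standard error of the log2 fold change was 0.256 and the intervals reached a median of 0.609 to either side. That width belongs to an unadjusted p in a single gene. A call needed an adjusted p under 0.05, which 0 of the 12529 genes tested reached in edgeR's test. Differences larger than 0.609 could therefore also go uncalled at this depth and number of libraries. The median size of the fold change, without its sign, was 0.09 for the 70 genes, 0.34 for all genes tested and 0.29 for the 2018 genes whose mean level lay between the quartiles of the 70.

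The spread among libraries was also narrow. The highest of the 4 libraries exceeded the lowest by a median of 1.21-fold over the 70 genes (1.02 to 1.64), against 1.78-fold over all genes tested and 1.63-fold over the genes of that CPM range. For 48 of the 70 the mean difference between diets was smaller than the difference between the 2 glucose libraries. Glucose had the wider gap between its libraries, a median size of 0.159 in log2 against 0.107 for galactose. The count against the galactose gap, and the share of all genes, are not given here, so the 48 have no background. The second glucose library was lower than the first in 38 of the 70, and the second galactose library was lower than the first in 45. The gene with the least spread, chosen after its values were seen, was mRpL24, whose bacterial homolog helps to nucleate assembly of the large subunit. It had 35.7 and 35.0 CPM on galactose and 35.4 and 34.9 CPM on glucose.

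In 10 of the 70 genes the galactose libraries were both below the glucose libraries, against 23.4% of all genes tested. In another 10 they were both above, against 18.8% of all genes tested. The small subunit contributed 4 genes to each direction and the large subunit 6. These shares of the 70, 14.3% each way, depend on the scaling. With median-of-ratios scaling and with library totals alone 6 genes were lower and 22 higher, with DESeq2 6 and 25, and with upper-quartile scaling 16 and 2. The shares of all genes in these settings are not given here, so these counts have no background to be read against.

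**Figure D2:**
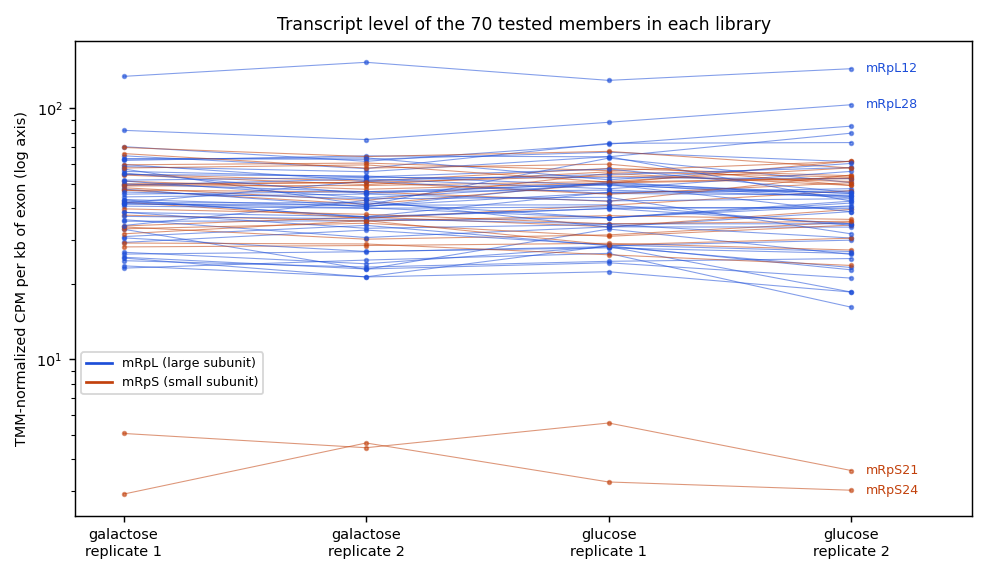
Level of each of the 70 tested genes in each library, as TMM-normalized CPM per kilobase of annotated exon on a log axis, with galactose libraries left and glucose libraries right; each line joins the values of 1 gene, blue for the large and orange for the small subunit. The lines run nearly flat, mRpL12 stays at the top, and mRpS21 and mRpS24 stay at the bottom in all 4 libraries.

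In the small subunit, mRpS9 has a bacterial homolog whose tail reaches the transfer RNA in the peptidyl site. Its gene (FBgn0037529) lies on chromosome 3R, minus strand, 7889277 to 7902667 in BDGP6.54. mRpS9 had 61.2 and 53.7 CPM on galactose and 65.0 and 79.8 CPM on glucose. Both galactose libraries were below both glucose libraries, though the glucose libraries differed more from each other than the nearest pair across diets did. The log2 fold change was -0.33 ± 0.26 (SE), the lowest of the 70, with an adjusted p of 0.713 in edgeR's test. In the annotation 25.1% of its exonic bases are shared with ArgRS-m, the mitochondrial arginyl-tRNA synthetase gene on the opposite strand. ArgRS-m had 15.9 and 20.9 CPM on galactose and 12.9 and 16.8 CPM on glucose, and no source used here gives the strand setting of the counts.

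The product of tko is the mitochondrial S12 protein of the decoding centre, and tko mutants are bang-sensitive flies, which seize after mechanical shock. This gene and bonsai, which encodes the S15 protein, belong to the mitochondrial ribosome under symbols outside the rule. tko had 46.2 and 42.1 CPM on galactose and 45.1 and 42.8 CPM on glucose, a log2 fold change of 0.005. bonsai averaged 51.7 ± 1.13 CPM on galactose and 48.6 ± 5.11 CPM on glucose (SD, n = 2 each). The diets overlapped in both genes, and adding both to the list left the median at 0.04.

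mRpS28, another small subunit protein, had 33.4 and 29.7 CPM on galactose and 38.1 and 34.1 CPM on glucose. Both galactose values were below both glucose values, by little at the nearest pair, and the log2 fold change was -0.19 ± 0.25 (edgeR adjusted p = 0.819). mRpS33, which has no bacterial counterpart, had 14.3 and 14.2 CPM on galactose and 12.8 and 11.6 CPM on glucose. Both of its galactose values were above both glucose values, with a log2 fold change of 0.22 ± 0.30 (edgeR adjusted p = 0.824).

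The S18 family has 3 genes in flies, a bacterial-type S18 protein and related proteins that sit elsewhere on mammalian mitochondrial ribosomes. mRpS18C, the one closest to bacterial S18, had 14.8 and 15.01 CPM on galactose and 15.3 and 14.4 CPM on glucose. mRpS18B had 28.6 and 30.1 CPM on galactose and 26.7 and 29.6 CPM on glucose. mRpS18A, whose mammalian homolog sits in the large subunit, had 38.4 and 33.6 CPM on galactose and 34.8 and 28.7 CPM on glucose. The diets overlapped in all 3 genes, and their log2 fold changes were 0.005, 0.06 and 0.18 for mRpS18C, mRpS18B and mRpS18A. mRpS30 is another protein named for the small subunit whose mammalian homolog sits in the large one. It had 102.8 and 105.5 CPM on galactose and 94.6 and 105.1 CPM on glucose, with overlapping diets and a log2 fold change of 0.06.

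The large subunit genes named here were picked by their values or added after these were seen, and their roles order the account without making a list of them. mRpL2 belongs to the core around the peptidyl transferase centre, where peptide bonds form. Its gene (FBgn0036135) lies on chromosome 3L, plus strand, 11120847 to 11122041. mRpL2 had 40.0 and 38.5 CPM on galactose and 48.2 and 48.7 CPM on glucose. The diets were apart and the replicates of each were close, and the log2 fold change was -0.30 ± 0.24 with an adjusted p of 0.724 in edgeR's test. mRpL3, which in bacteria also reaches toward that centre, had 51.6 and 51.2 CPM on galactose and 51.3 and 42.6 CPM on glucose. Its galactose values lay next to the first glucose library, and its log2 fold change had the opposite sign, 0.13.

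The L7/L12-type stalk recruits the elongation factors, and its protein mRpL12 is present in more copies per ribosome than other ribosomal proteins. mRpL12 (FBgn0011787, chromosome 3L, plus strand, 8956791 to 8957584) had 99.0 and 112.7 CPM on galactose and 95.5 and 106.2 CPM on glucose. The diets overlapped, with a log2 fold change of 0.07 ± 0.24. mRpL10 and mRpL11 form the base of that stalk. mRpL10 had 53.0 and 50.5 CPM on galactose and 58.0 and 38.6 CPM on glucose. mRpL11 had 18.6 and 15.6 CPM on galactose and 16.4 and 13.6 CPM on glucose. The glucose libraries of mRpL10 enclosed both galactose libraries, and the diets of mRpL11 overlapped, with log2 fold changes of 0.10 and 0.19. mRpL1, of the other stalk, had 76.7 and 77.5 CPM on galactose and 63.4 and 73.6 CPM on glucose, with the diets apart and a log2 fold change of 0.17 ± 0.25 (edgeR adjusted p = 0.835).

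mRpL45 has a mammalian homolog at the mouth of the peptide exit tunnel, where it faces the inner membrane. mRpL45 had 89.3 and 78.1 CPM on galactose and 91.4 and 107.8 CPM on glucose. The higher galactose library came close to the lower glucose library without crossing it, and the log2 fold change was -0.25 ± 0.25 (edgeR adjusted p = 0.766). mRpL22 and mRpL4 are homologs of bacterial proteins that line the tunnel. mRpL22 had 50.4 and 51.6 CPM on galactose and 51.6 and 51.1 CPM on glucose, with a log2 fold change of -0.009. mRpL4 had 42.3 and 40.6 CPM on galactose and 37.1 and 42.5 CPM on glucose, a log2 fold change of 0.06, and the diets of both genes overlapped.

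Among other bacterial-type proteins of the large subunit, mRpL28 (FBgn0031660, chromosome 2L, plus strand, 4973976 to 4975316) had 95.7 and 87.9 CPM on galactose and 103.0 and 121.0 CPM on glucose. The diets were apart, with a log2 fold change of -0.29 ± 0.25 (edgeR adjusted p = 0.737). mRpL9 had 49.3 and 51.4 CPM on galactose and 50.9 and 63.3 CPM on glucose, and the diets overlapped at a log2 fold change of -0.18. mRpL15 had 47.8 and 44.9 CPM on galactose and 45.5 and 32.6 CPM on glucose. Its second glucose library was the low one and the first lay between the galactose libraries, with a log2 fold change of 0.25 ± 0.28 (edgeR adjusted p = 0.789) that was 0.033 without the second glucose library. mRpL34, the gene with the widest spread over the 4 libraries, had 7.55 and 8.13 CPM on galactose and 8.65 and 5.28 CPM on glucose. The glucose libraries enclosed the galactose libraries, and its log2 fold change of 0.17 became -0.14 without the second glucose library.

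Of the proteins of the large subunit without a bacterial counterpart, mRpL42 had 38.4 and 34.2 CPM on galactose and 43.1 and 43.4 CPM on glucose. Its diets were apart, with a log2 fold change of -0.25 ± 0.25 (edgeR adjusted p = 0.764). mRpL39 had 62.0 and 61.2 CPM on galactose and 56.1 and 52.2 CPM on glucose. Its diets were apart in the other direction, with a log2 fold change of 0.19 ± 0.24 (edgeR adjusted p = 0.819).

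Taken by subunit and origin, the medians stayed near 0. The subunit follows the symbol, so mRpS18A and mRpS30 count as small. Origin follows the number in the symbol, except that mRpS24 counts as bacterial-type and mRpS18A and mRpS18B do not. Homology was not checked gene by gene, so single genes may be on the wrong side of this split. The median log2 fold change was -0.001 for the 24 small subunit genes, with 12 above and 12 below 0. It was 0.05 for the 46 large subunit genes tested, with 28 above and 18 below 0. With upper-quartile scaling these medians were -0.11 for the small and -0.06 for the large subunit, with library totals 0.10 and 0.15, and with the length correction 0.15 and 0.19. The 28 large subunit genes numbered after a bacterial protein had a median of 0.08, with 19 above and 9 below 0, and the other 18 had a median of -0.001. In the small subunit the 12 genes counted as bacterial-type had a median of -0.02 and the other 12 a median of 0.01.

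The ratio of the subunits did not separate the diets either. Per kilobase of annotated exon, the median level of small subunit genes was 47.3 and 42.2 CPM per kb on galactose and 44.1 and 49.3 on glucose. That of large subunit genes was 43.0 and 41.2 CPM per kb on galactose and 43.5 and 42.3 on glucose. The small over large ratio of these medians was 1.099 and 1.03 in the galactose libraries and 1.01 and 1.17 in the glucose libraries, so the glucose libraries enclosed the galactose libraries.

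Levels differed little from gene to gene once length was taken into account. The median over the 70 genes, as a mean over the 4 libraries, was 43.2 CPM per kb, against 11.5 CPM per kb over the 12277 tested genes with an annotated length. Of the 70 genes, 66 lay within 2-fold of their median (94.3%), against 35.4% of all tested genes around theirs. mRpL12 was the highest at 140.0 CPM per kb, followed by mRpL28 at 87.1, mRpL45 at 72.3 and mRpL9 at 67.6. At the low end mRpL34 had 22.6 and mRpL11 21.9 CPM per kb, while mRpS21 had 4.68 and mRpS24 3.45 CPM per kb. A gap separates the last pair from the rest, and the span from mRpS24 to mRpL12 is 40.6-fold.

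The genes at the bottom of that order are those that share the most exonic sequence with a neighbour. mRpS24, homolog of the bacterial S3 protein near the entry of messenger RNA, shares 55.3% of its 600 exonic bases with TBC1d7 on the opposite strand. mRpS21 shares 48.0% of its 475 exonic bases with CG8870, also on the opposite strand. mRpS24 had 1.74 and 2.79 CPM on galactose and 1.95 and 1.81 CPM on glucose, and mRpS21 had 2.41 and 2.11 CPM on galactose and 2.65 and 1.71 CPM on glucose. The diets overlapped in both genes. Taken per kilobase of unshared exon the levels were 7.73 CPM for mRpS24 and 8.99 CPM for mRpS21, still under the 21.9 CPM per kb that is the lowest among the 61 tested genes with under 10% of shared sequence. Not every gene with shared sequence was low: mRpS14, with 35.8% shared, was at 54.4 CPM per kb.

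mRpL53 (FBgn0050481, chromosome 2R, plus strand, 13954195 to 13955664) had 0 counts in each library. All of its 829 exonic bases lie within exons of CG33155 on the same strand, which also had 0 counts in each library. A count of 0 allows up to 3 counts, or 0.125 and 0.135 CPM in the galactose libraries and 0.117 and 0.139 CPM in the glucose libraries, for counting error only. The rule by which reads in bases shared by 2 genes were counted is given by no source used here, so these values do not bound the level of the transcript. Whether shared exons set the low counts was not tested.

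**Figure D3:**
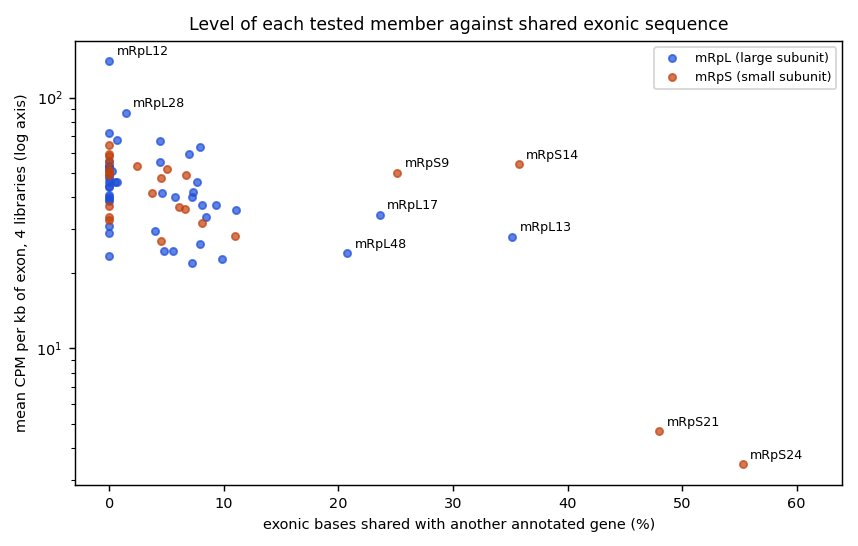
Mean level over the 4 libraries in CPM per kilobase of exon, on a log axis, of each of the 70 tested genes against the percentage of its annotated exonic bases that another gene shares; blue marks the large and orange the small subunit. mRpS21 at 48.0% and mRpS24 at 55.3% stand below 5 CPM per kb, and all genes with under 10% of shared sequence lie at 21.9 CPM per kb or above.

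The genes share features of structure that the choice by symbol did not use. They are short, with a median of 783 exonic bases (327 to 2078) against 1805 over all genes tested, a median of 192 codons (64 to 557) and a median of 2 exons at most per transcript, and 7 are single-exon genes. They lie on 3R (21 genes), 3L (15), 2L (12), 2R (12) and X (11), and the median log2 fold change per chromosome ran from -0.05 on 2R to 0.08 on 3R. Of the 71, 42 share exonic bases with another annotated gene (59.2%, against 33.0% of 13684 protein-coding genes). In 41 of these the partner is on the opposite strand, for 38 of them at the 3′ end.

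Their starts are crowded too. A protein-coding gene on the opposite strand starts within 500 bases of the start of 51 of the 71 genes (71.8%), against 24.5% of protein-coding genes. The median distance was 279 bases, and 0 of these neighbours are mRpL or mRpS genes. The 49 neighbours tested had a median log2 fold change of 0.24, with quartiles of 0.07 and 0.38, a range of -0.63 to 0.68, and 9 below 0. Over all genes tested the median was -0.04, with 53.1% below 0. The lengths of the neighbours are not given here, and their values were not compared with those of genes of like length. The range of the neighbours was wider than that of the mitochondrial ribosomal genes beside them. One such neighbour, named after its value was seen, is ATPsynD, a subunit of ATP synthase, whose start lies 95 bases from that of mRpL55. ATPsynD had a log2 fold change of -0.54, against 0.16 for mRpL55, and the difference between the genes was not tested.

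Short genes as a whole had lower fold changes in these libraries. Among the 2220 tested genes with over 500 and up to 1000 exonic bases the median log2 fold change was -0.28, and 70.6% were below 0. The 43 mitochondrial ribosomal genes of that class had a median of 0.03, with 18 of 43 below 0. Up to 500 bases the median was -0.32 over 510 genes, and 0.13 for the 6 mitochondrial ribosomal genes among them. From over 1000 to 1500 bases it was -0.14 over 2203 genes, and -0.05 for the 19 members of the class. Above 5000 bases, where there is no mitochondrial ribosomal gene, it was 0.26. The classes were chosen after the values were seen. With a length correction in the model the median of the 70 genes was 0.18, with 59 above and 11 below 0, and 0 of the 70 were called by edgeR.

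**Figure D4:**
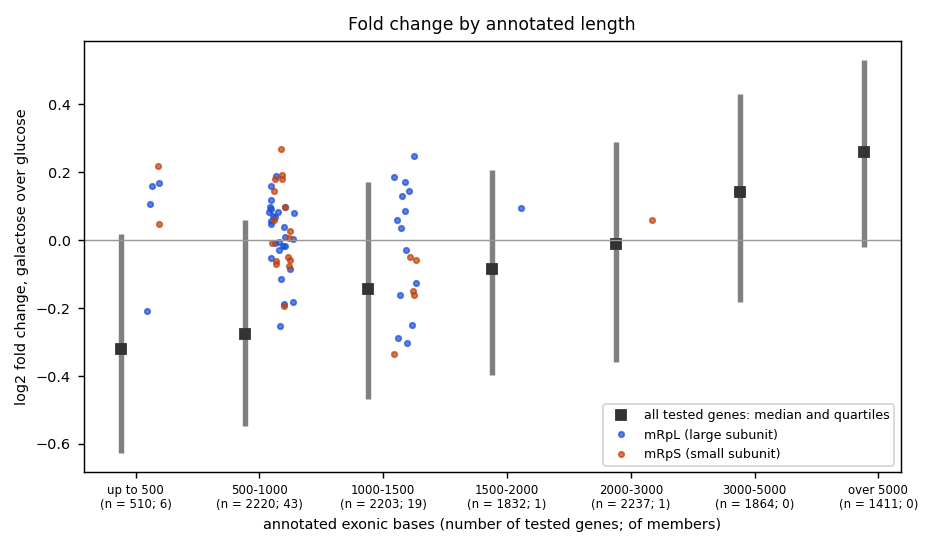
Log2 fold change, galactose over glucose, by class of annotated exonic length. Black squares and grey bars are the median and quartiles of all tested genes, from -0.32 in the shortest class to 0.26 in the longest, and coloured points are the 70 mitochondrial ribosomal genes, which lie between -0.33 and 0.27.

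The following lists of mitochondrial genes had medians from -0.15 to 0.13, with 0 genes called by edgeR in each, as over all genes tested. Nuclear genes for oxidative phosphorylation and regulators, described further below, had medians outside that range. Translation factors, which carry initiation, elongation and release, had a median of 0.01 (log2 fold change) over 11 tested genes of 14, with 6 above and 5 below 0. The factor gene with the smallest p, mEFTu2, had 64.8 and 67.1 CPM on galactose and 86.1 and 83.5 CPM on glucose (log2 fold change -0.36 ± 0.24, edgeR adjusted p = 0.677). Mitochondrial tRNA synthetases had a median of 0.13 over 15 genes, 9 above and 6 below 0. Genes for replication and transcription of mitochondrial DNA had a median of 0.08 over 14 tested genes of 17, with 9 above and 5 below 0. TFAM, which packages mitochondrial DNA and starts its transcription, had 120.1 and 124.6 CPM on galactose and 112.3 and 111.1 CPM on glucose (edgeR adjusted p = 0.870). Its diets were apart by a log2 fold change of 0.13. Import genes had a median of 0.05 over 11 tested genes of 12, 6 above and 5 below 0, and chaperones and proteases had -0.15 over 7 of 8, with 1 above and 6 below 0.

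The messenger RNAs that the mitochondrial ribosome reads, and the nuclear genes for their partners, had 0 edgeR calls, as over all genes tested. Transcripts encoded by mitochondrial DNA had a median of -0.10 (log2 fold change) over 11 tested genes of 13, with 5 above and 6 below 0. Among them mt:CoI, the catalytic core of cytochrome c oxidase, had 6606 and 5504 CPM on galactose and 7052 and 6922 CPM on glucose. Both galactose libraries were below both glucose libraries, with a log2 fold change of -0.21 and an adjusted p of 0.778 in edgeR's test.

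Nuclear genes for subunits of oxidative phosphorylation (OXPHOS), which assemble with those products, had a median of -0.50 on the same scale over 85 tested genes of 88, with 1 above and 84 below 0. In 69 of the 85 (81.2%) both galactose libraries were below both glucose libraries, against 23.4% of all genes tested. At an unadjusted p under 0.05 edgeR found 12 of the 85, all lower on galactose, against 8.24% of all genes in either direction. SdhB, the iron-sulfur subunit of succinate dehydrogenase, had 219.7 and 199.2 CPM on galactose and 307.1 and 361.9 CPM on glucose (log2 fold change -0.68 ± 0.24, edgeR adjusted p = 0.587). The median length of the OXPHOS genes was 842 exonic bases, against 783 for the mitochondrial ribosomal genes. All tested genes with over 500 and up to 1000 exonic bases had a median log2 fold change of -0.28. The medians of the OXPHOS and cytosolic ribosome genes with the length correction are not given here. The part of length in the OXPHOS values was not tested. Without 21 paralogs whose symbol carries an added L, 64 of 65 tested genes were below 0 and the median was -0.48. Proteins of the cytosolic ribosome had a median of -0.39 over 81 genes, with 77 below 0 and 65 (80.2%) apart in that direction, against the same 23.4%; the median was -0.67 without the first galactose library and -0.19 without the second. The difference between these lists and the mitochondrial ribosomal genes was not tested.

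**Figure D5:**
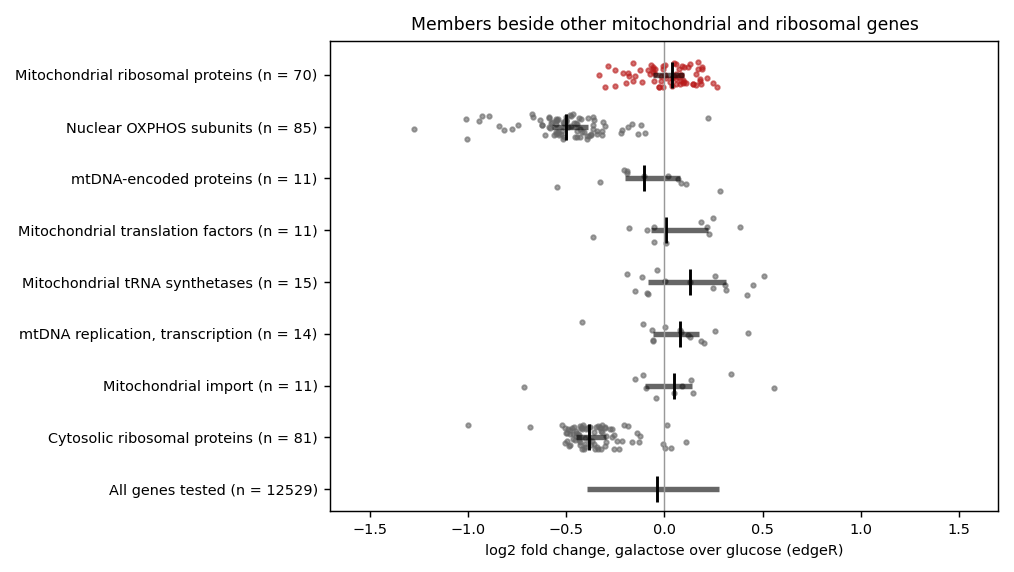
Log2 fold change, galactose over glucose, of each tested gene in lists of mitochondrial and ribosomal genes. Points are genes, the thick bar spans the quartiles and the tick marks the median; mitochondrial ribosomal proteins centre on 0.04, nuclear OXPHOS subunits on -0.50 and cytosolic ribosomal proteins on -0.39.

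Among regulators of nuclear genes for mitochondria, all 7 had a fold change above 0, with a median log2 of 0.51. For these 7, as over all genes tested, edgeR called 0. Their median length was 4642 exonic bases, and with the length correction the median fold change was 0.32. srl, the fly homolog of the PGC-1 coactivators, had 181.8 and 237.8 CPM on galactose and 114.0 and 109.7 CPM on glucose. Both galactose libraries were above both glucose libraries, with a log2 fold change of 0.91 ± 0.26 and an adjusted p of 0.582 in edgeR's test. ewg, the fly homolog of NRF-1, had 46.5 and 50.01 CPM on galactose and 35.9 and 31.7 CPM on glucose, a log2 fold change of 0.51 ± 0.25 (edgeR adjusted p = 0.621).

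Some marker lists of tissues also had medians away from 0. In each marker list edgeR called 0 genes, as over all 12529 genes tested. Muscle markers, from a tissue rich in mitochondria, had a median log2 fold change of -0.64, with 13 of 14 below 0. They summed to 7240 and 5600 CPM on galactose and 8291 and 12283 CPM on glucose. Eye markers had a median of -0.77, with 11 of 12 below 0, and female germline markers one of 0.59, with 10 of 11 above 0. At an unadjusted p under 0.05 edgeR found 9 of 12 eye and 7 of 14 muscle markers, all lower on galactose. It also found 4 of 11 female germline markers, all higher, against 8.24% of all genes in either direction. Both galactose libraries were below both glucose libraries in 83.3% of eye and 78.6% of muscle markers, against 23.4% of all genes. DESeq2 called 1 female germline marker, against 0.686% of all genes. Medians were -0.42 for testis, -0.23 for male accessory gland, -0.17 for fat body, 0.48 for neurons, 0.08 for midgut and 0.09 for eggshell and yolk. The fat body value rests on 4 tested genes of 7, with 2 above and 2 below 0 and a range of -1.99 to 0.54. Fbp1, Fbp2 and Lsp1alpha had 0 to 8 counts per library and were not tested. This median is therefore no reading of the fat body as a whole. Median lengths were 4678 exonic bases for female germline and 9854.5 for neuron markers. All tested genes with over 3000 and up to 5000 bases had a median log2 fold change of 0.14, and those above 5000 bases 0.26. Testis markers summed to 1327 and 1241 CPM on galactose and 2523 and 927.9 CPM on glucose, so the glucose libraries enclosed the galactose libraries. The same held for accessory gland markers, with 573.0 and 785.9 CPM on galactose and 1085 and 522.0 CPM on glucose. Neuron marker sums overlapped, at 317.7 and 211.7 CPM on galactose and 248.6 and 144.5 CPM on glucose. The part that muscle and other tissue transcripts have in the OXPHOS values, or in those of the mitochondrial ribosomal genes, was not tested.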

How the data were processed

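RNA was sequenced in 4 libraries, 2 per diet. The authors deposited raw read counts per gene and a table of their own comparison. That table holds a normalized expression signal per diet, a log2 fold change of glucose over galactose and p-values, per the file headers. The submitters' processing notes name TopHat2 2.0.12, Bowtie2 2.2.3, HTSeq 0.6.1, DESeq2 and build BDGP6. Neither the strand setting nor the rule for reads in shared exons is given in the sources used here.

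Of 17628 identifiers, 17252 were named, and the 306 unnamed FlyBase identifiers held 4.72% of counts. The members and the 19 gene lists were chosen with earlier results of these data known. Counts were fitted by diet alone in edgeR 4.0.16 (R 4.3.3) after TMM scaling and filterByExpr, with minima of 10 counts and of 15 in total, and tested by quasi-likelihood F tests at an adjusted p of 0.05 (Benjamini-Hochberg, 12529 genes). DESeq2 1.42.0, limma-voom (limma 3.58.1), other scalings and filters, a length correction, a replicate block and leaving out each library were alternatives. Simulated data were used to test the edgeR fits with TMM scaling, median-of-ratios scaling and length correction, DESeq2 and limma-voom. The other alternatives were not tested in that way. Lengths, coordinates and shared exons come from the BDGP6.54 annotation.

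Genes were named by rule: the 8 members with the smallest p, the 4 highest and 4 lowest by CPM per kb, the 3 highest and 3 lowest fold changes, members with numbered copies, mRpS30, mRpL53, tko and bonsai, and up to 3 genes of each other list. mRpL1, mRpL3, mRpL4, mRpL10, mRpL22, mRpL24, mRpL55, mRpS14, mt:CoI and TFAM were added for their role, structure or spread after values were seen.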

Additional observations from a re-analysis of the deposited data

How the results depend on the processing

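In every alternative run, 0 of the mitochondrial ribosomal genes were called; 68 of the 70 were left where a mean of at least 5 CPM was required, and 70 in the others. Over all genes, DESeq2 called 88, and edgeR called 0 to 549 when 1 library was left out (549 without glucose replicate 1 and 147 without glucose replicate 2). Such a fit takes its spread from the 2 libraries of the other diet alone and assumes that the lone library varies like them. The median log2 fold change of the 70 was 0.0885 with median-of-ratios scaling and 0.093 with DESeq2, -0.0772 with upper-quartile scaling, 0.13 with library totals, -0.00124 with the 5 CPM minimum, 0.18 with the length correction and -0.0581 to 0.038 with 1 library left out, lowest without galactose replicate 1. The genes with both galactose libraries lower numbered 6 with median-of-ratios scaling, library totals and DESeq2, 16 with upper-quartile scaling, 0 with the length correction and 14 to 32 with 1 library left out. Those with both higher numbered 22, 22 and 25 with the first 3 settings, 2 with upper-quartile scaling, 23 with the length correction and 11 to 31 with 1 library left out. Leaving a library out makes non-overlap easier by construction, and for the rest the cause was not tested. The shares of all genes in these settings are not given here, so these counts have no background to be read against.

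The replicate number as a block gave a median of 0.04 and called 0 genes; same-numbered deviations correlated at 0.225 over all genes, but with 2 pairs and no label that ties numbers the libraries share only a number.

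Single genes changed sign. With upper-quartile scaling log2 fold changes were -0.0142 for bonsai, -0.0422 for mRpL12, -0.0483 for mRpS18B, -0.108 for mRpS18C, -0.0707 for mRpS21, -0.0473 for mRpS30 and -0.104 for tko; with the 5 CPM minimum they were -0.0285 for mRpS18C and -0.0277 for tko. With 1 library left out the values ran from -0.0145 to 0.207 (bonsai), -0.00787 to 0.329 (mRpL11), -0.0209 to 0.154 (mRpL12), -0.14 to 0.57 (mRpL34), -0.0128 to 0.143 (mRpS18B), -0.0528 to 0.0492 (mRpS18C), -0.22 to 0.40 (mRpS21), -0.10 to 0.50 (mRpS24), -0.0146 to 0.145 (mRpS30) and -0.131 to 0.0764 (tko). Named genes that kept their sign moved too, all but mRpL2 by over 1.5 times: mRpL15 ran from 0.033 without glucose replicate 2 to 0.51 without glucose replicate 1, and mRpL9 from -0.33 without glucose replicate 1 to -0.012 without glucose replicate 2. Ranges were -0.50 to -0.17 for mRpS9, 0.015 to 0.33 for mRpS18A, -0.42 to -0.16 for mRpL28, -0.42 to -0.12 for mRpL45, -0.41 to -0.16 for mRpL42, -0.35 to -0.11 for mRpS28, 0.11 to 0.24 for mRpL39 and 0.15 to 0.29 for mRpS33, while mRpL2 ran from -0.40 to -0.27.

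Medians of other lists were, for chaperones, -0.0957 with median-of-ratios scaling, -0.267 with upper-quartile scaling, -0.0636 with library totals, -0.0906 with DESeq2 and -0.0611 with the length correction; for import, -0.0582 with upper-quartile scaling, 0.15 with library totals and 0.25 with the length correction; for tko and bonsai, -0.0590, 0.15 and 0.16 in those settings; and with the length correction 0.32 for regulators and 0.13 for genes of mitochondrial DNA. With 1 library left out they were -0.277 to -0.0736 for chaperones, 0.47 to 0.65 for regulators, -0.0840 to 0.144 for import, -0.0748 to 0.176 for translation factors, -0.24 to 0.16 for genes of mitochondrial DNA, -0.73 to -0.35 for OXPHOS, -0.67 to -0.19 for the cytosolic ribosome and -0.0657 to 0.0969 for tko and bonsai. Of 507 alternative values, 408 kept their direction and side or moved by less than the replicate spread.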
